A study of Mus musculus with 6 samples.

Results

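The replication-dependent histone genes were followed in neural progenitor cells (NPCs) of mouse embryos with and without Ybx1, the gene of a Y-box protein that binds DNA and RNA. The members were chosen by symbol, as every gene symbol of the form Hist followed by a cluster number from 1 to 4 and by the class, H1, H2A, H2B, H3 or H4, with no hyphen. There were 69 members among 51733 symbols, with 6 genes of H1, 20 of H2A, 18 of H2B, 12 of H3 and 13 of H4. By cluster, 56 members belonged to Hist1 on chromosome 13, 10 to Hist2 on chromosome 3, 2 to Hist3 on chromosome 11 and 1 to Hist4 on chromosome 6. On GRCm38 the Hist1 members span chr13:21715763-23934851, apart from Hist1h2al at chr13:51202727-51203065, and the Hist2 members chr3:96219865-96270132. The annotation gives 67 members as protein coding and Hist1h2aj and Hist1h2al as pseudogenes. The group was selected on its difference between Ybx1-KO and control libraries, which was known from earlier results of the same counts, so every value of the members by genotype below is a description with no test.

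Total RNA was taken from E13.5 neural tubes of C57BL/6 mice after sorting for Sox2-positive cells, and stranded libraries were sequenced in pairs of 100 cycles. Control embryos were labelled wildtype and the others YBX1KO, here called Ybx1-KO, with 3 libraries in each group and both sexes used. The Ybx1-KO line of the study carries the germ-line tm1Ley allele of Ybx1 in both copies. In both groups NPCs were sorted by GFP expressed from Sox2, and the Sox2-eGFP line of the study, tm1Hoch, is on a B6;129S1 background. Libraries are named control 1, 2 and 3 and Ybx1-KO 1, 2 and 3. Sample titles give controls 1 and 2 a number in common, and Ybx1-KO 1 and 2 as well, without saying what it stands for, so libraries within a group may not all be independent and the spread between them may be partly technical. No such number is common to both groups. A difference that goes with these numbers therefore cannot be told apart from the genotype.

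The libraries held 20841990, 23883542 and 21574427 counts on genes in control and 8483075, 13321952 and 4743279 in Ybx1-KO. Ybx1 itself stood at 235, 523 and 301 CPM (counts scaled to a common library total) in control and at 124, 54.5 and 9.51 in Ybx1-KO, scaled by TMM (trimmed mean of M values), as is every level below unless stated otherwise. All 3 Ybx1-KO libraries were below the controls, but Ybx1-KO 1, the library with the highest histone sum, kept 35.2% of the control mean, against 15.4% in Ybx1-KO 2 and 2.70% in Ybx1-KO 3. Counts per gene do not tell the deleted part of Ybx1 from the rest, so the loss itself was not checked. Library Ybx1-KO 3 stood apart, with 7.22% of its read pairs on genes and 59.5% outside them, against 18.0 to 24.7% and 30.6 to 46.7% in the other 5, and with counts on 39553 genes against 19649 to 30482. It also held 4691 CPM on receptor genes of smell, taste and the vomeronasal organ, which most tissues keep silent, against 25.5 to 98.3 CPM elsewhere. These receptor levels were scaled to library totals only, without TMM. The sum over all members, the class ratios and the medians and counts over all members are therefore given with and without it. Most other ratios, among them those of clusters and lists, include it. Sox2, the marker of the sort, was present in every library at 17.2 to 49.8 CPM. In bulk RNA, fewer cells of a kind and less RNA per cell cannot be told apart.

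Histones H2A, H2B, H3 and H4 form the core around which DNA is wound, and H1 binds the linker between cores. The replication-dependent genes are expressed in S phase, mostly lack introns and lie in clusters. Their mRNAs end, in place of a poly(A) tail, in a short stem-loop bound by SLBP, which acts in processing, translation and decay of the message. Replication-independent genes elsewhere in the genome encode variants such as H3.3 and H2A.Z from polyadenylated messages. The paper does not state whether RNA was selected by its poly(A) tail before sequencing. The values below are counts on gene models and do not tell messages with a tail from those without.

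The stem-loop is shown because it is the sequence feature that sets these messages apart. It was found in the annotated transcripts of 46 of the 69 members, 4 of H1, 11 of H2A, 10 of H2B, 9 of H3 and 12 of H4, and in 67 of 21901 protein-coding genes (0.306%). The 3 most frequent forms are printed 5′ to 3′ in DNA letters, with the 4 bases of the loop in capitals. They were held by 26, 7 and 6 members, in that order.
Most frequent form: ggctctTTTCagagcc
Next form: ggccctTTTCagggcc
Least frequent of the 3: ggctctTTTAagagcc
Of the 46 members, 23 have a model that ends within 100 bases of the stem-loop, and 23 a model that runs more than 100 bases past it. The other 23 members have models without it, 2 of H1, 9 of H2A, 8 of H2B, 3 of H3 and 1 of H4. The model of Hist1h4d, an H4 gene, runs 770 bases past the stem-loop, and that of Hist4h4 2445 bases.

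Upstream sequences of 62 members were found in RefSeq (GRCm38.p6). For each class the member with the highest level per kilobase is shown, as the 250 bases before the start of the transcript, 5′ to 3′ on the gene's strand. Capitals mark CCAAT or its complement ATTGG, the Y-box core for which Y-box proteins were named, the TATA box TATAAA, the octamer ATTTGCAT, the H4 element GGTCCG and the H1 element AAACACA, each searched on both strands.
Hist1h1b, chr13:21780626-21780875, minus strand: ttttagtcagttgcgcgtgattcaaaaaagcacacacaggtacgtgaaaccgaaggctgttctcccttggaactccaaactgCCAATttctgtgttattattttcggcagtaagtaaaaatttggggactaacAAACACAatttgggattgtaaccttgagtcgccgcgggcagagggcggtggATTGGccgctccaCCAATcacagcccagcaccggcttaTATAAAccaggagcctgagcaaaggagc
Hist1h2ak, chr13:21753913-21754162, minus strand: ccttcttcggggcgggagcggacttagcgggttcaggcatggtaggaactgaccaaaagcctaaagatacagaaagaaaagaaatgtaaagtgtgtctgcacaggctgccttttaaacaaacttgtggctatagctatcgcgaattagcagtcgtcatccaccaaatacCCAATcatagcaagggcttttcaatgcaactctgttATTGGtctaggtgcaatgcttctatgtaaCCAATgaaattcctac
Hist1h2bl, chr13:21716184-21716433, minus strand: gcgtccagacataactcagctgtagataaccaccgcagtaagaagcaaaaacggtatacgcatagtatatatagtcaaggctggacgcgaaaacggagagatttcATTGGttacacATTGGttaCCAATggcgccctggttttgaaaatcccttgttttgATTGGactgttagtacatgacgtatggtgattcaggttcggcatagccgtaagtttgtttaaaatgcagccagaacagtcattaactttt
Hist1h3e, chr13:23562386-23562635, minus strand: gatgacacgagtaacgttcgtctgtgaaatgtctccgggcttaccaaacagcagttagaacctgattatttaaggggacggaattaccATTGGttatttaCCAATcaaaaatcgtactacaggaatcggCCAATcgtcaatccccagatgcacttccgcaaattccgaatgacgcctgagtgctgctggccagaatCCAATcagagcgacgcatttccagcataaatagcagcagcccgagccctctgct
Hist1h4d, chr13:23581318-23581567, plus strand: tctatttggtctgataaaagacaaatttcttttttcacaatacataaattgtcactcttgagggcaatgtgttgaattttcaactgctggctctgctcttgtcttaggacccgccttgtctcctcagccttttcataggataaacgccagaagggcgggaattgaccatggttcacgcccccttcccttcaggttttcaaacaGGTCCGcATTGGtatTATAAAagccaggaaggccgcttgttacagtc
The Hist1h4d window holds the H4 element, 1 CCAAT and a TATA box close together near its 3′ end, while the Hist1h3e and Hist1h2bl windows hold 4 CCAAT each and none of the other 4 motifs.

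Within windows of 300 bases, 250 before and 50 after the start, CCAAT was found in all 6 H1, 18 H2A, 16 H2B and 10 H3 windows but in 3 of 12 H4 windows, against 37.4% of 32851 promoters. The H4 element was found in 11 of 12 H4 windows (8.25% of all promoters) and the H1 element in 5 of 6 H1 windows (7.18%). The octamer occurred in 7 of 18 H2A and 6 of 16 H2B windows and in none of the other classes (1.74%). Several of these H2A and H2B genes are divergent neighbours whose windows overlap, so the windows are not independent. TATAAA was found in 35 of 62 windows (13.6%). A match is a description of letters, not a binding site.

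Summed over all members, the histone level was 687, 901 and 1892 CPM in control and 3539, 3304 and 1950 CPM in Ybx1-KO. The Ybx1-KO libraries were all above the controls, though Ybx1-KO 3 exceeded control 3 by little. The means were 1160 ± 643 (SD, n = 3) and 2931 ± 858 (SD, n = 3), a ratio of 2.53. Without Ybx1-KO 3 the ratio was 2.95. Control 3 was the highest control, and Ybx1-KO 3 the lowest Ybx1-KO library, in each of the 5 classes under TMM. The TMM factor was 1.51 in Ybx1-KO 3 and 0.734 in Ybx1-KO 2. Scaled to library totals only, control 3 was still the highest control in each class. Ybx1-KO 3 was then the lowest Ybx1-KO library in no class. As raw counts, the members took 0.0698, 0.0819 and 0.175% of the counts on genes in control and 0.374, 0.243 and 0.294% in Ybx1-KO, where the groups did not overlap.

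H3 and H4 showed the largest ratios. The H3 sum was 22.1, 37.9 and 69.0 CPM in control and 248, 174 and 123 CPM in Ybx1-KO, with every Ybx1-KO library above the controls. Its means were 43.0 ± 23.8 and 182 ± 62.7 (SD, n = 3), a ratio of 4.22 and a log2 fold change of 2.08 (standard error 0.478) in edgeR. The H4 sum was 178, 312 and 787 CPM in control and 1888, 1515 and 967 CPM in Ybx1-KO, again without overlap. Its means were 425 ± 320 and 1457 ± 464 (SD, n = 3), a ratio of 3.42, and its log2 fold change was 1.78 (standard error 0.614).

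H1 differed less, at 190, 257 and 387 CPM in control and 467, 707 and 393 CPM in Ybx1-KO. The means were 278 ± 100 and 522 ± 164 (SD, n = 3), a ratio of 1.88. Here Ybx1-KO 3 and control 3 were nearly level. H2A was at 92.6, 92.5 and 229 CPM in control and at 453, 278 and 149 CPM in Ybx1-KO, and H2B at 204, 202 and 420 against 483, 630 and 318 CPM. In both classes Ybx1-KO 3 fell below control 3 under TMM, so the groups overlapped. Scaled to library totals only, Ybx1-KO 3 lay above control 3 in H1, H2A and H2B. The H2B groups then did not overlap, while those of H2A still did. The means were 138 ± 78.8 and 293 ± 153 for H2A and 275 ± 125 and 477 ± 156 for H2B (SD, n = 3). The ratios were 2.13 and 1.73, with log2 fold changes of 1.09 (standard error 0.515) for H2A and 0.80 (standard error 0.489) for H2B. Without Ybx1-KO 3 the class ratios were 2.11 for H1, 2.65 for H2A, 2.02 for H2B, 4.91 for H3 and 4.00 for H4.

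**Figure D1:**
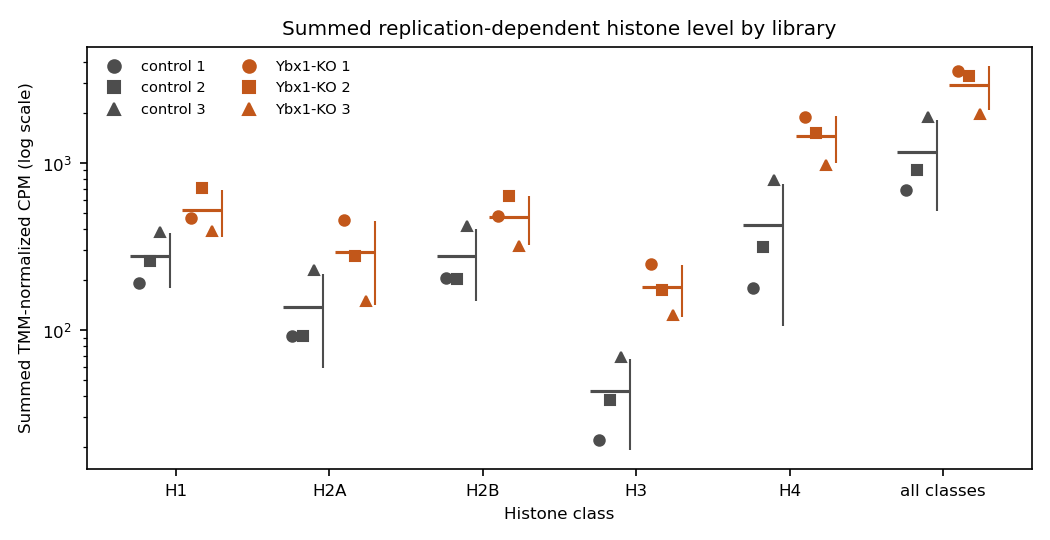
Summed TMM-normalized CPM (log scale) of each histone class and of all classes, with 1 point per library, a horizontal line at the group mean and a vertical line of 1 SD on each side (n = 3). The 3 Ybx1-KO libraries lie above the 3 controls for H1, H3, H4 and all classes, and overlap them for H2A and H2B.

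The make-up of the histone counts does not depend on the scaling between libraries. H4 held 25.9, 34.6 and 41.6% of the histone counts in control and 53.4, 45.8 and 49.6% in Ybx1-KO, and H3 held 3.22, 4.21 and 3.65% against 6.997, 5.27 and 6.30%. For both classes all 3 Ybx1-KO libraries were higher. H2B took the opposite course, at 29.7, 22.4 and 22.2% in control and 13.7, 19.1 and 16.3% in Ybx1-KO, with all 3 lower. The shares of H1 and H2A overlapped between the groups. Exact Clopper-Pearson intervals at 95% were narrow, at 41.1 to 42.1% for H4 in control 3 and 45.3 to 46.4% in Ybx1-KO 2, and cover counting error only. The shares follow the length of the gene models as well as the number of messages, so they do not compare classes with each other.

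**Figure D2:**
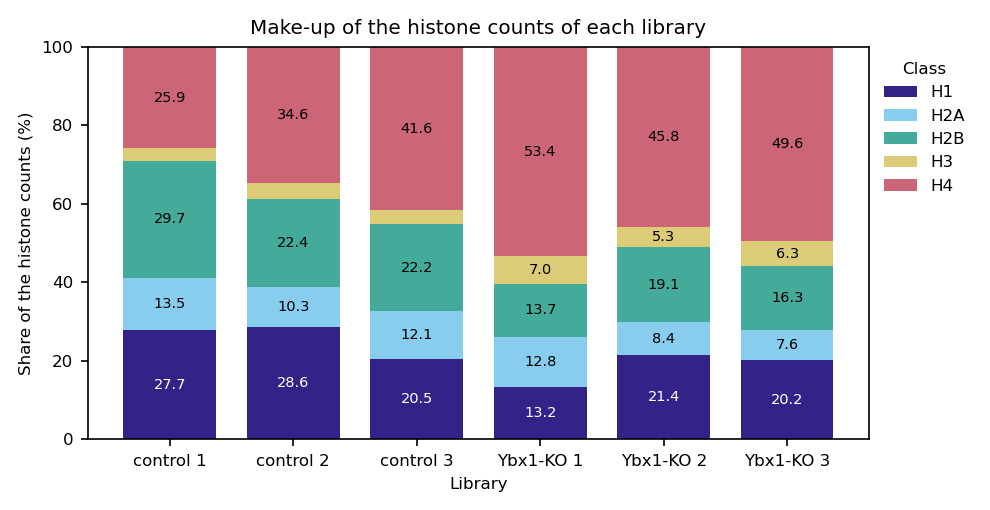
Share of each class (%) in the summed histone counts of each of the 6 libraries, with shares above 5% printed in the bars. H4 takes 25.9 to 41.6% in control and 45.8 to 53.4% in Ybx1-KO libraries, and H2B 22.2 to 29.7% and 13.7 to 19.1%.

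By cluster, the Hist1 sum was 562, 772 and 1637 CPM in control and 3125, 3067 and 1772 CPM in Ybx1-KO, a ratio of 2.68. The Hist2 sum was 40.2, 58.6 and 76.7 CPM against 174, 137 and 101 CPM, a ratio of 2.35, also without overlap. The Hist3 cluster behaved otherwise, at 81.1, 63.0 and 173 CPM in control and 212, 77.8 and 55.4 CPM in Ybx1-KO, a ratio of 1.09 with overlap, which fell below 1 when control 1, control 2 or Ybx1-KO 1 was left out. Its share of the histone counts was 11.8, 6.99 and 9.15% in control and 5.98, 2.35 and 2.84% in Ybx1-KO, lower in all 3. Hist4h4, the single Hist4 member and an H4 gene, stood at 3.73, 7.28 and 5.25 CPM against 27.9, 22.4 and 20.98 CPM. Its means were 5.42 ± 1.78 and 23.8 ± 3.66 (SD, n = 3), a ratio of 4.38 without overlap.

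Within classes the clusters differed too. H3 genes of Hist1 had a ratio of 4.48 and those of Hist2 of 2.42. H4 genes had ratios of 3.39 in Hist1, 3.83 for Hist2h4 and 4.38 for Hist4h4. H2A genes of Hist1 and Hist2 had ratios of 2.73 and 2.57, against 1.15 for Hist3h2a. H2B genes of Hist1 had a ratio of 2.01, against 1.03 for Hist3h2ba and 0.845 for the 2 genes of Hist2. These differences between clusters were not tested.

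Of the 69 members, 64 passed the filter of a mean FPKM (fragments per kilobase of exon, scaled to depth) above 1 in at least 1 group. Of these, 8 passed through Ybx1-KO alone and 1 through control alone, so counts over the tested members are not independent of the direction. A log2 fold change above 0 was found for 62 tested members, against 61.3% of the 21327 genes tested. Without Ybx1-KO 3 it was found for 60 of them, against 40.1% of all genes. All 3 Ybx1-KO libraries lay above all 3 controls for 32 tested members (4.98% of all genes), and below for 0 (8.16%). Without Ybx1-KO 3, both remaining libraries lay above every control for 46 members (10.3%).

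The median log2 fold change of the tested members was 1.48, and 1.63 without Ybx1-KO 3, while that of all tested genes was 0.31 and -0.067. Class medians were 0.94 for H1, 1.40 for H2A, 1.09 for H2B, 2.14 for H3 and 2.13 for H4. At an adjusted p below 0.05 with more than a 1.5-fold difference, the edgeR quasi-likelihood test called 0 members, and 0% of all genes in either direction. At an unadjusted p below 0.05, 29 members were higher (6.96% of all genes) and 0 lower (4.26%). DESeq2 called 15 members higher (0.553% of all genes), of them 7 of H4, 6 of H3, 1 of H2B and 1 of H1, limma-voom 0, and edgeR without Ybx1-KO 3 called 6 (0.127%). Because these values chose the members, nothing is read from the counts.

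**Figure D3:**
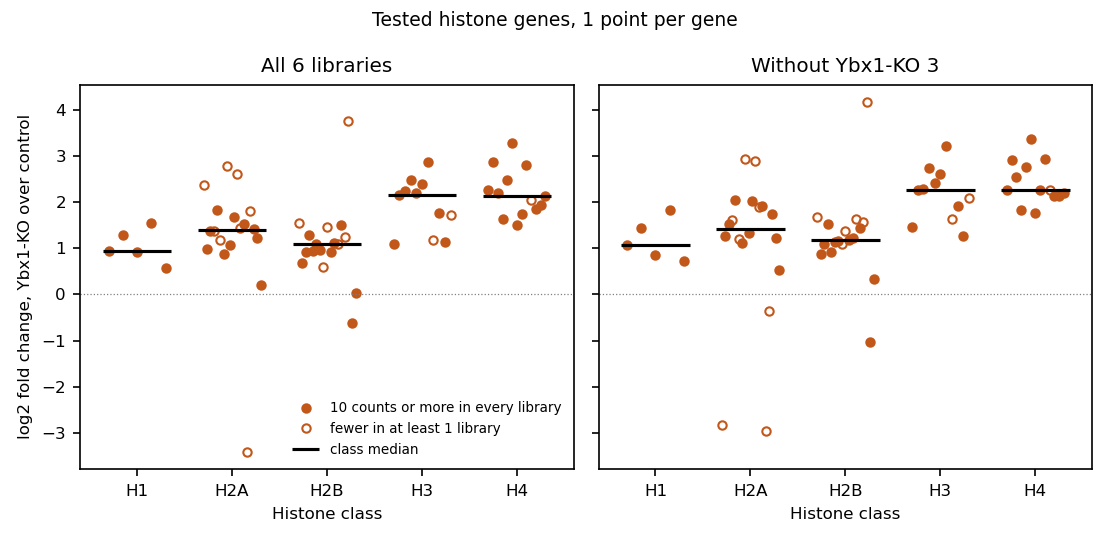
log2 fold change of Ybx1-KO over control for each tested member by class, with all 6 libraries on the left and without Ybx1-KO 3 on the right; filled points have 10 counts or more in every library and lines mark class medians. Medians rise from 0.94 in H1 to 2.14 in H3 and 2.13 in H4, and the points far below 0 are open.

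The values of short genes depended on the filter and on library Ybx1-KO 3. Among the 3773 other tested genes with up to 500 bases of exon, the median log2 fold change was 2.53 with that library and 0 without it. Of these genes 64.2% passed the FPKM filter through Ybx1-KO alone, and their median count in Ybx1-KO 3 was 5, so the filter itself favours a difference. Among the 465 such genes above 1 CPM in at least 3 libraries, a filter that a gene cannot pass through 1 library alone, the medians were 0.47 and 0.53. The 23 members of that length which passed it had medians of 1.57 and 2.00. This split by length under that filter was added after the data were seen. Histone genes are short, with a median of 534 bases of exon. The 28 tested members of up to 500 bases had a median of 1.49 with all libraries and 1.70 without Ybx1-KO 3. The 9 tested members of over 1000 and up to 2000 bases had medians of 1.63 and 1.82, where other tested genes of that length had 0.74 and -0.13, or 0.17 and 0.098 above 1 CPM in 3 libraries. Counts per kilobase like those on the receptor genes would make up 1.79% of the histone counts of Ybx1-KO 3 and at most 0.153% elsewhere.

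Among the H1 genes, which encode the linker histones, Hist1h1e had the highest CPM. It stood at 94.3, 137 and 181 CPM in control and 156, 308 and 148 CPM in Ybx1-KO, with overlap and the lowest log2 fold change of its class, 0.57 (standard error 0.448). Its share of the histone counts was lower in all 3 Ybx1-KO libraries, at 4.404, 9.34 and 7.61% against 13.7, 15.2 and 9.57%. Its model overlaps that of Hist1h2be on the same strand, so pairs there could not be assigned to either gene.

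Hist1h1b had the highest level per kilobase of the H1 genes, at 35.8, 51.8 and 95.1 CPM in control and 141, 197 and 107 CPM in Ybx1-KO. Hist1h1c was at 30.6, 32.3 and 59.1 CPM against 67.5, 83.4 and 78.6 CPM. Hist1h1d had the largest log2 fold change of the class, 1.55 (standard error 0.423), at 13.03, 15.3 and 22.4 CPM against 61.3, 60.8 and 26.0 CPM. These 3 genes and Hist1h1a had no overlap between the groups.

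Among the H2A genes, which pair with H2B in the core, Hist1h2ak was at 31.0, 14.7 and 51.0 CPM in control and 186, 80.3 and 44.4 CPM in Ybx1-KO. Its log2 fold change was 1.68 (standard error 0.536), with Ybx1-KO 3 below control 3. Hist1h2ab was at 5.15, 14.7 and 38.5 CPM against 36.5, 59.4 and 20.0 CPM, also with overlap. Hist1h2ae had the highest log2 fold change among H2A genes with at least 10 counts in every library, 1.82 (standard error 1.15), and lay at 0.57, 1.01 and 1.65 CPM against 3.80, 5.32 and 2.38 CPM. Hist3h2a, at 41.3, 29.9 and 81.6 CPM against 117, 31.3 and 27.1 CPM, had the lowest at 0.20 (standard error 0.534). Only Ybx1-KO 1 was above all the controls for it. The Hist3h2a model overlaps Trim17 on the same strand.

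Predicted genes on the opposite strand overlap the H2A genes. The 20 such models held 821, 905 and 1743 counts in control and 1704, 1454 and 468 in Ybx1-KO, beside 1960, 2007 and 4579 and 4058, 2722 and 1065 counts on the H2A genes. The model within Hist1h2ak, Gm44454, held 332, 250 and 462 counts in control and 879, 369 and 116 in Ybx1-KO. The strand setting of the counting was not given in the sources used here, so the strand of origin of these counts cannot be told apart. With the miRNA models among them added, the H2A log2 ratio was 1.15, against 1.09.

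Among the H2B genes, Hist1h2bm was at 39.7, 51.4 and 87.7 CPM in control and 91.5, 195 and 99.2 CPM in Ybx1-KO, without overlap. Hist1h2bl, the H2B gene with the highest level per kilobase, was at 35.2, 54.1 and 112 CPM against 131, 181 and 67.9 CPM, with overlap. Hist1h2bp had the largest log2 fold change among H2B genes with at least 10 counts in every library, 1.498 (standard error 0.932), at 1.46, 1.01 and 3.401 against 2.34, 8.69 and 5.60 CPM. Hist2h2be was lower, at 14.7, 19.3 and 24.0 CPM in control and 5.58, 13.7 and 18.5 CPM in Ybx1-KO, with overlap and a log2 fold change of -0.62 (standard error 0.477). Hist2h2be was 1 of 2 tested members with a log2 fold change below 0, and its model of 2620 bases holds no stem-loop. Hist3h2ba was at 39.8, 33.2 and 91.5 CPM against 94.1, 46.5 and 28.3 CPM, which is level within the spread.

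Among the H3 genes, the highest per kilobase was Hist1h3e, at 5.15, 12.4 and 19.6 CPM in control and 74.8, 58.0 and 37.1 CPM in Ybx1-KO. Hist1h3c was at 2.93, 4.70 and 7.85 CPM against 29.6, 20.96 and 22.8 CPM, and Hist1h3b at 2.03, 4.33 and 8.10 against 27.0, 19.6 and 17.2 CPM. The lowest Ybx1-KO library was above the highest control for each of these 3 genes. Hist1h3g had the largest log2 fold change of the class, 2.86 (standard error 0.670), from 1.32, 1.47 and 3.85 to 28.7, 13.1 and 6.44 CPM. Hist1h3a had the lowest among H3 genes with at least 10 counts in every library, 1.08 (standard error 0.866), and its groups overlapped at 1.23, 1.52 and 6.80 against 10.3, 7.67 and 2.24 CPM.

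Among the H4 genes, Hist1h4d took most of the counts of the class, 73.6, 77.5 and 83.1% in control and 66.3, 79.4 and 74.6% in Ybx1-KO. It lies at chr13:23581598-23582735 on the plus strand of GRCm38, and all of its 100-base stretches were its own. Its level was 131, 241 and 654 CPM in control and 1253, 1203 and 721 CPM in Ybx1-KO, so control 3 came close to Ybx1-KO 3. Without Hist1h4d the H4 sum was 47.0, 70.3 and 133 CPM against 636, 312 and 245 CPM, a ratio of 4.77. Without it, the sum over all classes had a ratio of 2.29 and its groups overlapped under TMM, but not when scaled to library totals only.

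Hist1h4f was at 8.12, 16.4 and 45.6 CPM in control and 220, 100 and 68.7 CPM in Ybx1-KO, without overlap. Hist2h4 was at 16.01, 16.3 and 19.2 against 93.8, 57.7 and 45.7 CPM. Hist1h4h had the largest log2 fold change of the class, 3.28 (standard error 0.632), from 1.13, 1.47 and 2.40 to 27.1, 7.67 and 14.0 CPM. The lowest was that of Hist1h4i, 1.505 (standard error 0.861), whose groups overlapped. Of the 13 H4 genes, 11 had every Ybx1-KO library above every control, as had 8 of 11 tested H3 genes, 5 of 17 H2B genes, 4 of 18 H2A genes and 4 of 5 H1 genes, where the share over all tested genes was 4.98%.

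The germ-line members Hist1h1t, Hist1h2aa and Hist1h2ba, known from testis, held 3, 4 and 6 counts together in the controls and 6, 6 and 8 in Ybx1-KO 1, 2 and 3. Hist2h2aa1 and Hist2h3c1 held 0 counts in every library, which allows a level of up to 0.126 to 0.632 CPM, without TMM scaling, by counting error alone. Hist2h2aa1 lies beside its copy Hist2h2aa2, and 4.11% and 0% of their 100-base stretches were found at no other locus. Hist2h3c1 lies within a predicted gene, Gm20634, on the same strand, and the model of Hist2h2aa1 overlaps that gene too. Read pairs tallied as not uniquely aligned made up 20.1, 24.1 and 29.0% of pairs in control and 32.2, 35.6 and 21.5% in Ybx1-KO.

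The share of 100-base stretches found in no other annotated gene was 95.4% in H1, 54.0% in H2A, 64.2% in H2B, 43.5% in H3 and 82.5% in H4. Gene models that overlap a member count against it here, and with genes at other loci only the shares were 98.5, 62.9, 67.9, 57.9 and 83.4%. The 40 members with at least 50% of their stretches in no other gene had a ratio of 2.54 and the other 29 of 2.42, and counted by other loci the 44 members had 2.56 and the other 25 had 2.28. Members whose model ends within 100 bases of the stem-loop had a ratio of 2.96, those whose model runs further 2.51 and those with no stem-loop in the model 2.29. The 53 members with CCAAT in the promoter window had a ratio of 2.41, at 622, 817 and 1736 CPM against 2947, 2997 and 1707 CPM, with overlap. Scaled to library totals only, these groups did not overlap. The 9 without CCAAT, all of them H4 genes, had a ratio of 5.14 and no overlap, at 22.0, 41.6 and 85.8 CPM against 420, 197 and 150 CPM. Hist1h4d is among those with CCAAT, and class and motif cannot be told apart here.

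Other genes of the histone pathway were followed by lists, each by its summed level with a two-sided exact permutation test, where 3 against 3 libraries cannot give a p below 0.1, adjusted over 13 lists. No list could therefore reach an adjusted p below 0.05. The lists were chosen with earlier results of these data known, so their p values are a description only. Of the 170 tested genes of these lists, edgeR's quasi-likelihood test called 0 after adjustment over all genes (40 at an unadjusted p below 0.05), limma-voom 0 and DESeq2 10. Over all 21327 tested genes the shares were 0%, 11.2%, 0% and 1%, in that order. A log2 fold change above 0 was found for 61.3% of all tested genes and below 0 for 38.7%, beside which the counts of higher and lower list genes stand. The list of 12 genes of histone transcription had a log2 ratio of 0.29 (exact permutation p = 0.3, adjusted p = 0.557), with 9 genes higher. Npat, the coactivator at histone loci, stood at 43.1, 47.5 and 29.5 CPM in control and 14.2, 43.1 and 18.9 CPM in Ybx1-KO. E2f1, a transcription factor of S-phase entry, stood at 5.76, 25.2 and 19.3 against 32.3, 49.4 and 26.9 CPM, without overlap, and E2f3 and Cdk2 also had every Ybx1-KO library above the controls.

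The list of 3′ end processing had 13 of 19 tested genes higher and a log2 ratio of 0.28 (permutation p = 0.7, adjusted p = 0.758). Slbp, which binds the stem-loop, was at 43.4, 34.2 and 35.3 CPM in control and 103, 33.5 and 39.3 CPM in Ybx1-KO, so its mean difference came from Ybx1-KO 1 alone. The U7 snRNP proteins Lsm10 and Lsm11 were at 8.55, 4.51 and 7.75 against 7.15, 6.13 and 1.54 CPM and at 17.6, 25.5 and 28.0 against 19.6, 19.8 and 8.95 CPM, both overlapping. Casp8ap2, a factor of the histone locus body, was at 73.6, 105 and 46.1 against 42.6, 50.2 and 41.3 CPM.

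The list of translation and decay of histone messages had 8 of 10 genes lower and a log2 ratio of -0.39 (permutation p = 0.2, adjusted p = 0.557). Eri1, the exonuclease that trims the stem-loop end and acts in decay, was at 55.2, 50.6 and 38.6 CPM in control and 26.9, 28.1 and 24.6 CPM in Ybx1-KO. All 3 Ybx1-KO libraries were below the controls, at a log2 difference of -0.86 ± 0.361 (SE; edgeR adjusted p = 0.443). Mif4gd, a partner of SLBP in translation, was at 2.93, 1.98 and 3.15 against 24.8, 3.78 and 2.80 CPM, high in Ybx1-KO 1 alone. For chaperones and import, 10 of 18 genes were higher and the log2 ratio was 0.16 (permutation p = 0.6, adjusted p = 0.758). Chaf1a, a subunit of the chaperone that deposits H3 and H4 behind the fork, was at 10.6, 16.3 and 14.3 against 25.5, 29.9 and 22.9 CPM, while Asf1a, another H3 and H4 chaperone, was at 72.6, 59.6 and 82.6 against 48.6, 41.5 and 35.3 CPM.

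The list of DNA replication and S phase had 32 of 38 genes higher (61.3% of all tested genes), and 13 had every Ybx1-KO library above every control (4.98% of all tested genes). Its sum was 1288, 1584 and 1333 CPM in control and 1696, 1926 and 1733 CPM in Ybx1-KO, without overlap, a log2 ratio of 0.35 (permutation p = 0.1, the smallest possible, adjusted p = 0.433). The helicase subunit Mcm3 was at 26.0, 47.8 and 32.1 CPM against 77.0, 73.8 and 66.6 CPM, the licensing factor Cdc6 at 6.09, 14.3 and 7.55 against 25.2, 18.3 and 28.8 CPM and the flap endonuclease Fen1 at 11.6, 12.2 and 14.0 against 27.5, 25.2 and 30.1 CPM. Mcm2 and Mcm5 were also without overlap. The sliding clamp Pcna was at 133, 62.0 and 143 against 118, 109 and 148 CPM, with overlap.

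G2 and mitosis genes had 14 of 18 higher and a log2 ratio of 0.33 with overlap (permutation p = 0.3, adjusted p = 0.557). Aurka, a mitotic kinase, was at 10.5, 13.2 and 10.4 CPM against 37.7, 22.4 and 26.7 CPM, while Mki67, a marker of cycling cells, was at 197, 344 and 150 against 211, 356 and 223 CPM. The proliferation lists thus had log2 ratios of 0.33 and 0.35, and the histone sum 1.34. The part of cell-cycle phase in the histone levels was not tested.

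Replication-independent histones gave a log2 ratio of -0.052 (permutation p = 0.9, adjusted p = 0.9), at 2144, 1928 and 2968 CPM against 2938, 2347 and 1507 CPM. H3f3a, which encodes H3.3, was at 628, 419 and 745 CPM in control and 373, 297 and 171 CPM in Ybx1-KO, lower in all 3, at a log2 difference of -1.09 ± 0.488 (SE; edgeR adjusted p = 0.443). H3f3b, which also encodes H3.3, was at 529, 389 and 459 against 676, 267 and 223 CPM, with overlap and highest in Ybx1-KO 1. H2afz, which encodes H2A.Z, was at 371, 422 and 804 against 334, 625 and 407 CPM. Like the replication-dependent sum it was highest in control 3 among the controls. H2afv, a second H2A.Z gene, was at 68.7, 36.4 and 99.9 against 324, 62.6 and 90.5 CPM, above all controls in Ybx1-KO 1 alone. Cenpa, the centromeric H3, was at 22.3, 32.2 and 32.5 against 63.9, 53.4 and 67.2 CPM, and the linker variant H1fx at 4.67, 7.42 and 13.45 against 88.4, 22.2 and 9.79 CPM.

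**Figure D4:**
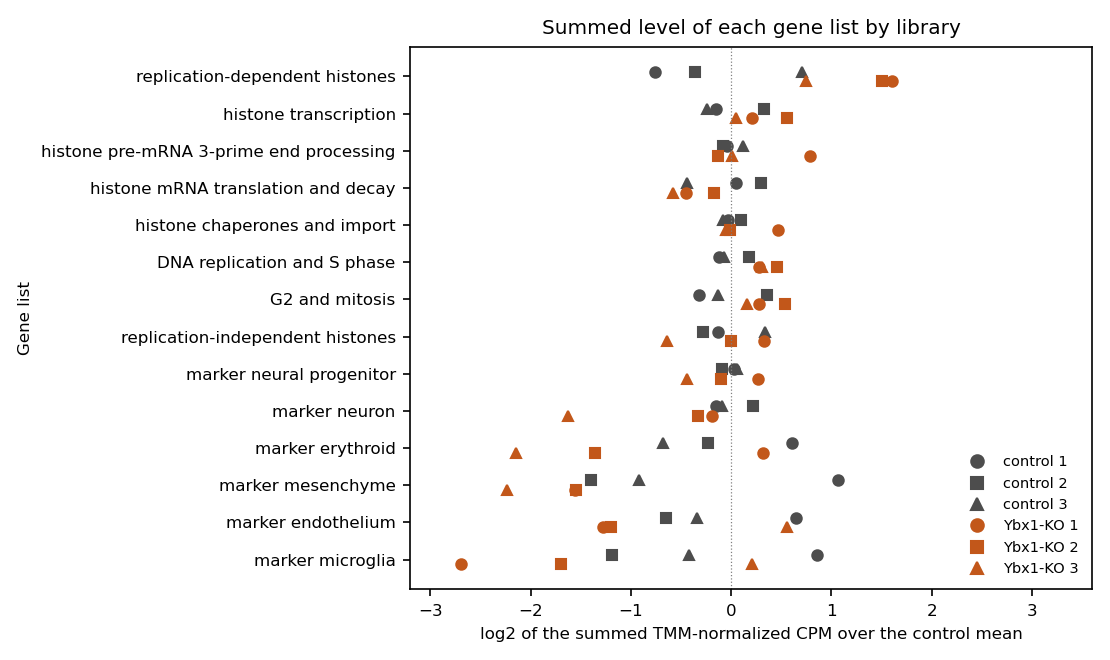
log2 of the summed TMM-normalized CPM of each gene list over its control mean, with 1 point per library. The replication-dependent histones and the S phase list have every Ybx1-KO point above the controls, and the neuron and mesenchyme markers have every Ybx1-KO point below them.

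Markers of other cells were summed in the same way, and none of these lists had an adjusted p below 0.433. The sum of 10 neuron markers was 3675, 4735 and 3832 CPM in control and 3578, 3235 and 1325 CPM in Ybx1-KO, lower in all 3 (log2 ratio -0.59, permutation p = 0.1, adjusted p = 0.433). Ybx1-KO 1 was little below control 1, and Ybx1-KO 3 was by far the lowest. Of the 10 genes, 8 were lower and 2 higher. Snap25, a synaptic protein, was at 111, 161 and 167 against 50.8, 79.7 and 50.9 CPM. Mesenchyme markers were at 912, 166 and 231 CPM against 149, 150 and 92.5 CPM, with 8 of 8 lower (log2 ratio -1.74, permutation p = 0.1, adjusted p = 0.433), and control 1 far above the rest. Erythroid markers were at 1160, 648 and 474 against 949, 298 and 172 CPM (log2 ratio -0.69, permutation p = 0.3, adjusted p = 0.557). Of the 9 tested genes among them, 4 were higher and 5 lower. Hbb-bs was at 593, 16.1 and 188 CPM against 20.0, 6.24 and 4.90 CPM. Hbb-bh1 went the other way, at 0.80, 16.2 and 0.70 CPM against 51.6, 20.3 and 9.93 CPM.

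Endothelium markers ranged from 20.2 to 49.7 CPM in control and 13.1 to 46.4 CPM in Ybx1-KO (log2 ratio -0.37, permutation p = 0.5, adjusted p = 0.722), and microglia markers from 9.49 to 39.2 and 3.35 to 25.04 CPM (log2 ratio -0.89, permutation p = 0.4, adjusted p = 0.65). Neural progenitor markers summed to 1589, 1466 and 1631 CPM against 1886, 1457 and 1148 CPM (log2 ratio -0.061, permutation p = 0.7, adjusted p = 0.758). Among them Nes, the progenitor filament, was at 63.0, 129 and 52.6 CPM against 283, 213 and 165 CPM, and Slc1a3, a glial glutamate transporter, at 91.8, 36.4 and 74.8 against 21.3, 23.5 and 14.3 CPM. The part of these cell types in the histone levels was not tested.

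The class ratios kept their sign under every scaling, filter and left-out library tried. The H3 log2 ratio lay between 1.76 and 2.60 as each library was left out in turn, and the H4 ratio between 1.41 and 2.57, against 0.54 to 1.23 for H2B and 0.63 to 1.22 for H1. The highest value came without control 3 in all 5 classes.

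**Figure D5:**
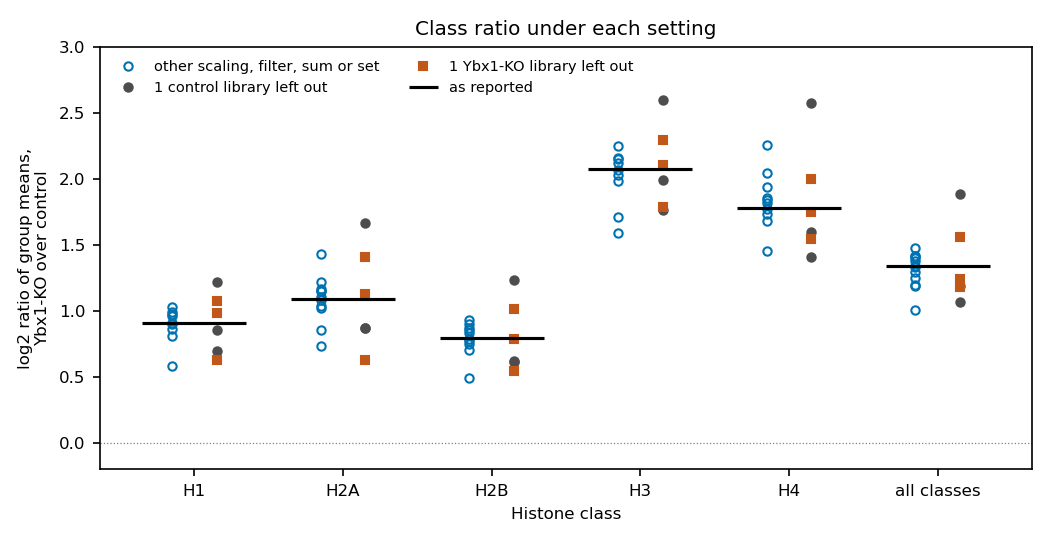
log2 ratio of the group means for each class and for all classes as reported (line), under other scalings, filters and gene sets (open circles) and with 1 library left out (filled points). Every value is above 0, H3 is reported at 2.08 and H4 at 1.78, and the top filled point of each class is the setting without control 3.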

How the data were processed

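The authors counted paired-end reads on genes with HTSeq 0.6.1p1 and a GENCODE annotation and deposited raw read counts by gene symbol, 1 table per library, not normalized, filtered or pooled. The submitters' processing notes name CASAVA and the builds mm10 and GRCm38.p5. The aligner and the strand setting are not given in the sources used here. The counter's tallies of other read pairs were kept out of library sizes and used only to describe libraries.

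Groups came from the genotype label. Exon lengths and coordinates came from GENCODE M21 on GRCm38, with 47624 symbols matched directly and 358 through older symbols of 51733. Counts were scaled by TMM (factors 0.734 to 1.51) on 21327 genes whose mean FPKM passed 1 in at least 1 group, and tested with edgeR 4.0.16 (quasi-likelihood, Benjamini-Hochberg) in R 4.3.3, calling an adjusted p below 0.05 with a fold change above 1.5. The script was tested on simulated data. limma 3.58.1 (voom, the study's method) and DESeq2 1.42.0 were alternatives, beside other scalings, filters and leaving out each library. The paper reports genes called in both directions with voom at these thresholds, whereas limma-voom called 0 of 21327 here. The cause of that difference was not tested. Class values are sums of counts over members as CPM, since copies are near-identical. List sums were tested by exact permutation in Python 3.11.15. At these depths 3 counts equal 0.126 to 0.632 CPM without TMM scaling, and intervals cover counting error only. No 2 libraries were copies (chi-square per degree of freedom at least 51.1 over genes). Uniqueness was counted as the share of a model's 100-base stretches in no other annotated gene, overlapping models included, or at no other locus, and stem-loops were matched to the histone stem-loop consensus in GENCODE transcripts.

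The members and lists were chosen with earlier results of these data known. Genes named are, per class, the 3 with the highest mean CPM, those with the highest and lowest log2 fold change among members with 10 counts or more in every library, the germ-line members and the Hist3 and Hist4 members. From each list at most 5 genes with an unadjusted p below 0.05 could be named, beside Ybx1, Slbp, Npat, Casp8ap2, Lsm10, Lsm11, Pcna, Mki67 and H2afz. Other features (Gm44454, Sox2, H3f3b, Hist1h1a, Hist1h2be, Gm20634, Hist2h2aa1, Hist2h2aa2 and Hist2h3c1) were named after their values were seen.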

Additional observations from a re-analysis of the deposited data

Results flagged for a closer look

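Library Ybx1-KO 3 held 4691.48 CPM on 1944 receptor genes of smell, taste and the vomeronasal organ, where control libraries held 32.6 to 98.3 CPM. These levels were not scaled by TMM. The receptor genes were not compared between the groups as a list. Any of them that passed the FPKM filter counted among the 21327 tested genes and their shares. At least 1 count was found on 77.6% of these genes in Ybx1-KO 3 and on 2.21 to 27.1% in the other 5 libraries. Their part in the histone values was not tested beyond the subtraction and the values without that library.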

How the results depend on the processing

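The log2 ratios of the 5 class sums and of all classes kept their sign under every alternative. Other scalings, filters and sets gave 1.01 to 1.48 for all classes, 0.58 to 1.03 for H1, 0.73 to 1.43 for H2A, 0.49 to 0.93 for H2B, 1.59 to 2.25 for H3 and 1.45 to 2.25 for H4; with 1 library left out, all classes ranged from 1.07 to 1.88 and H2A from 0.63 to 1.67. TMM on genes in the members' interquartile length range, chosen after the data were seen like the settings without Hist1h4d or Hist3 and with the miRNA models, gave 1.01 for all classes.

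edgeR called 0 members, DESeq2 15 and edgeR without a filter 11, and leaving out 1 library gave 0 to 14 (1 without Ybx1-KO 1, 14 without Ybx1-KO 2, 6 without Ybx1-KO 3). Over all genes edgeR called 0 higher and 0 lower, DESeq2 118 and 96, no filter 113 and 80, and leaving out 1 library gave 0 to 292 higher and 0 to 138 lower: 29 and 42 without control 2, 17 and 11 without Ybx1-KO 1, 292 and 138 without Ybx1-KO 2 and 27 and 19 without Ybx1-KO 3. Members wholly above the controls numbered 32 to 49 with 1 library left out, with 49 without control 3. Over the 21327 tested genes the number was 1063 with all 6 libraries, 1333 to 2479 with 1 left out and 1706 without control 3. With library totals in place of TMM and all 6 libraries, 38 members and 1251 of all tested genes were wholly above. The cause was not tested.

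Some values changed sign. The Hist3 sum gave -0.27 under the interquartile lengths and -0.67 to 0.67 with 1 library left out (below 0 without control 1, control 2 or Ybx1-KO 1). With 1 library left out, the lists ranged from -0.057 to 0.45 for 3′ end processing and -0.030 to 0.25 for chaperones (below 0 without Ybx1-KO 1), -0.28 to 0.17 for replication-independent histones (above 0 without control 3 or Ybx1-KO 3), -0.26 to 0.098 for neural progenitor markers (above 0 without Ybx1-KO 3) and -1.24 to 0.11 for endothelium (above 0 without control 1). DESeq2 size factors gave 0.017 for replication-independent histones and 0.017 for progenitor markers, and total counts 0.087, 0.10 and, for endothelium, 0.028. In the same way Hist1h2aa ranged from -2.83 (without Ybx1-KO 3) to 3.11, Hist3h2a from -0.83 to 0.72 (below 0 without control 2 or Ybx1-KO 1), Hist3h2ba from -0.58 to 0.63 (below 0 without control 1, control 2 or Ybx1-KO 1, and -0.027 without a filter), Slbp from -0.063 (without Ybx1-KO 1) to 0.92, Pcna from -0.14 to 0.36 (below 0 without control 2 or Ybx1-KO 3), Mki67 from -0.089 to 0.60 (below 0 without control 3 or Ybx1-KO 2) and H2afz from -0.52 to 0.20 (above 0 without control 3).

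No paired analysis was possible because no number in the titles is common to both groups. Depth limits members with few counts, and 3 counts equal up to 0.632 CPM without TMM scaling.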
